A study of Rhodotorula toruloides with 36 samples.

Results

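The catalogue of mRNAs deposited for the yeast Rhodotorula toruloides IFO0880 holds 643 pairs of genes that lie on opposite strands of one scaffold and whose spans share at least 1 bp. The pairs were found from the start, end and strand of every mRNA alone, without use of any expression value. They involve 1215 of the 8490 catalogue genes, and 642 of them are among the 8469 pairs of neighbouring genes. In the remaining pair, mRNA_5835/mRNA_5837, another gene of the catalogue comes between the partners in the order of starts. In 379 pairs the genes run towards each other and overlap at their 3′ ends (tail-to-tail), in 262 they run apart and overlap at their 5′ ends (head-to-head), and in 2 one gene lies within the other (nested). For both partners of 616 pairs, 362 tail-to-tail, 252 head-to-head and both nested ones, enough counts were present for a test. The other 27 pairs have a partner that failed the filter on low counts.

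In a compact fungal genome, neighbouring genes on opposite strands often transcribe into each other. Genes that run apart share the DNA between or under their starts, where promoters can act in both directions and nucleosomes are cleared for both. Genes that run towards each other end in the same stretch, where polyadenylation and termination take place and where the polymerases and transcripts of both strands can meet. Overlapping transcripts of opposite strands carry complementary sequence and can in principle form double strands.

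R. toruloides is a red basidiomycete yeast that accumulates lipid when nitrogen is scarce. The wild-type strain IFO0880 was pre-grown in buffered glucose medium as 3 colonies, each then divided among 4 flasks, and messenger RNA was sequenced in 12 groups of 3 biological replicates. Low nitrogen meant 0.1 g/L ammonium sulfate, with 0.75 g/L yeast extract according to the design text. For high nitrogen the treatment protocol names 5 g/L ammonium sulfate and the design text 10 g/L, and which applies was not settled here. Each nitrogen level was combined with no acetate or 2 g/L acetate, and cultures were sampled at 48, 64 and 88 h. The labels do not tie replicate numbers to colonies or times to flasks, so a p-value measures only the spread between these libraries. The flasks named are fewer than the 36 libraries. If there were no others, flasks were sampled at more than 1 time. The comparisons of 88 with 48 h would then set repeated samples of the same flasks against each other, which the fit treated as independent. In such bulk RNA, a change in the share of cells in one state and a change in RNA per cell cannot be told apart.

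The 36 libraries held between 10173719 and 63311529 counts over the catalogue, and 8314 genes were tested. The libraries of high nitrogen with acetate at 48 h replicate 3, of high nitrogen without acetate at 64 h replicate 2 and at 88 h replicate 2, and of low nitrogen without acetate at 64 h replicate 1 stood apart: the chi-square per degree of freedom of each with both other replicates of its group was over 3 times that between those replicates. With these 4 left out, the median partner correlation of tail-to-tail pairs, described below, was -0.05 instead of -0.08, and every count of pairs stayed within 1.5 times its value. No identifier in the catalogue is paired with a gene name, so genes are called by their mRNA numbers and no function is given to any of them. The order of the genes along the scaffolds, their strands and their exons are those of assembly version 4.

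Most of the overlaps were short. The median shared length was 68 bp, with quartiles of 23 and 177.5 bp, and the median was 60 bp in tail-to-tail and 89 bp in head-to-head pairs. A total of 383 pairs shared under 100 bp, 248 shared 100 bp to under 500 bp, 12 shared 500 bp or more and 0 shared 1000 bp or more. The longest tail-to-tail overlap was 611 bp and the longest head-to-head overlap was 813 bp. All 643 pairs shared exon sequence, with a median of 61 bp, and in 457 the whole shared stretch was exonic in both genes. Only untranslated sequence was shared in 265 pairs, coding sequence of at least 1 partner was involved in 378, and coding sequence of both partners coincided in 29, over at most 62 bp. The pairs were spread over 18 of the 21 scaffolds. Of the 1215 genes, 1144 belong to 1 pair and 71 to 2 pairs, and 69 of those 71 have one neighbour in each layout. A further 492 pairs in the catalogue overlap on the same strand, and 102 of the 1215 genes take part in one of these as well.

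Genes of overlapping pairs more often carry annotated untranslated regions than the rest of the catalogue. A 5′ untranslated region was annotated for 81.4% of them and for 60.9% of the other genes, and a 3′ untranslated region for 84.1% and 61.6%. An annotated end extends a gene's span, so this difference bears on which genes can meet the rule. Their median of 5 exons was that of the other genes too. Their median level was 27.2 CPM per kb, which is CPM (a count scaled to its library's effective size) divided by exon length in kilobases, against 32.0 in the other genes, and their group means ranged over a median of 1.75 log2 units against 1.8.

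How overlapping reads were assigned bears on every value that follows. The library kit is a stranded one per the labels, while the strand setting used in counting is not given in the sources used here. Without it, reads in a shared stretch cannot be assigned to one partner with certainty, and the values of both are uncertain to that extent. Exons of the partner covered little of most genes: the larger of the 2 covered shares of exon length was 5.51% in the median pair, and it exceeded 50% in 11 pairs. Levels were lower where more of a gene was covered. The median was 28.7 CPM per kb in 674 genes with up to 5% of exon length shared, 26.2 in 208 genes with 5 to 10%, 19.6 in 214 genes with 10 to 20% and 13.5 in 119 genes with more than 20%.

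Genes whose exons are covered almost wholly by those of a partner show both outcomes. mRNA_5217 has 98.6% of its exon length under exons of mRNA_5216 on the other strand, with 8 bp outside those exons, and it nevertheless gathered 23366 counts over the 36 libraries. mRNA_6681 has 94.7% of its exon length under exons of mRNA_6682 and 37 bp outside them, and it gathered 158704 counts, more than the 42736 of its longer partner. mRNA_6738, by contrast, has 86.7% of its exon length under exons of mRNA_6737 and gathered 62 counts in all, beside 135934 for the partner. Of these 3 mostly covered genes, 2 thus took up many counts from a stretch that is almost entirely shared, and 1 was close to empty.

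Across the 12 groups, head-to-head partners tended to move together and tail-to-tail partners did not. For each pair, Pearson's r was taken between the partners' mean log2 CPM in the 12 groups, as a description that shares libraries, scaling and groups between all pairs. The median r was 0.49 in the 252 head-to-head pairs, with quartiles of 0.04 and 0.70, and -0.08 in the 362 tail-to-tail pairs, with quartiles of -0.38 and 0.34. Taken from the libraries of replicate 1, 2 or 3 alone, the head-to-head median was 0.44, 0.44 and 0.47 and the tail-to-tail median -0.04, -0.07 and -0.08. The separation of the layouts held under scaling by library totals alone, with 0.59 and 0.14, although the sign of the tail-to-tail median turned under that scaling, which also raised the median over all gene pairs from 0.00 to 0.14. The difference between the layouts was not tested, since pairs share genes and libraries.

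**Figure D1:**
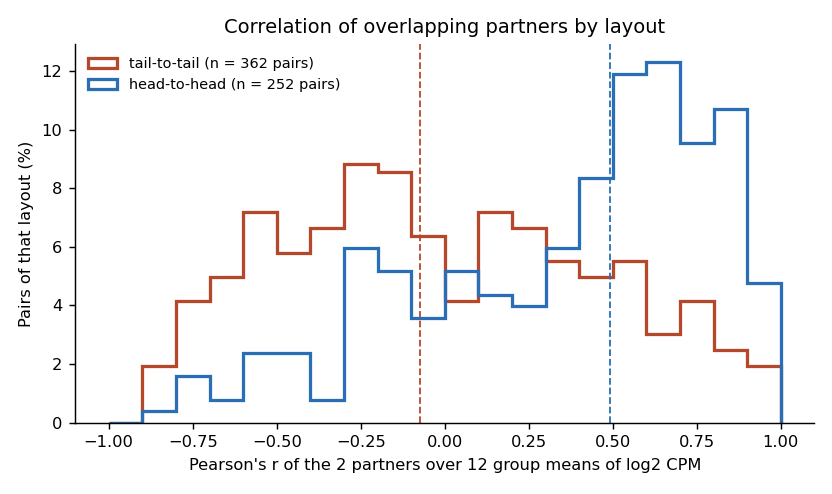
Distribution of partner correlation over the 12 groups. The x axis is Pearson's r between the partners' mean log2 CPM, and the y axis is the percentage of pairs in each bin. The outlines stand for overlapping tail-to-tail and overlapping head-to-head pairs, and dashed lines mark medians. The overlapping head-to-head pairs lie to the right, with a median of 0.49, and the overlapping tail-to-tail pairs are spread on both sides of 0, with a median of -0.08.

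Strong agreement and strong opposition were both unevenly divided. Values of r above 0.5 were found in 49.2% of head-to-head and 17.1% of tail-to-tail pairs, and values below -0.5 in 5.16% and 18.2%. Neighbours with a gap of at most 1000 bp were divided the same way. Their shares were 39.5% and 16.9% above 0.5, and 6.08% and 14.3% below -0.5. At 0.8 or more stood 55 of the 616 tested overlapping pairs, of which 39 were head-to-head and 16 tail-to-tail. At -0.8 or less stood 8 pairs, of which 7 were tail-to-tail. These last counts were not taken in neighbours with a gap, so nothing about overlap is read from them. A negative r was found in 23.0% of head-to-head and 54.4% of tail-to-tail pairs, against 28.2% and 47.55% of those with a gap.

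Neighbours that do not overlap differed by layout in the same direction. With a gap of at most 1000 bp, the median r was 0.36 in 1825 head-to-head, 0.03 in 1796 tail-to-tail and 0.17 in 2861 same-strand pairs, and it was 0.18 over all 8149 neighbouring pairs tested. The medians of overlapping pairs thus lay further from one another, with head-to-head above and tail-to-tail below their counterparts with a gap. Within groups the layouts differed in the same direction, but overlapping pairs lay no further apart than pairs with a gap. Correlating the deviations of single libraries from their group means, the median was 0.21 in head-to-head and 0.04 in tail-to-tail overlapping pairs. With a gap of at most 1000 bp it was 0.21 and 0.02.

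The 66 genes with a tested partner in each layout carry the comparison within 1 gene. For 54 of them r was higher with the head-to-head partner and for 12 with the tail-to-tail partner. Some pairs enter more than once, through both of their genes. Genes with neighbours at a gap in both layouts were not compared in this way. Pairs with a gap of at most 1000 bp differed in the same direction, with median r of 0.36 head-to-head and 0.03 tail-to-tail. The median r was 0.58 with the head-to-head and -0.22 with the tail-to-tail partner. Where gene and partner were both called changed, 21.8% of the changes were opposed with the head-to-head and 50% with the tail-to-tail partner.

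Longer overlaps went with more agreement in both layouts, weakly. In tail-to-tail pairs the median r was -0.12 under 100 bp (235 pairs), -0.02 from 100 to under 500 bp (124 pairs) and 0.65 from 500 bp (3 pairs). In head-to-head pairs it was 0.44 (137 pairs), 0.53 (108 pairs) and 0.61 (7 pairs) in the same bins. The longest bins hold too few pairs for their medians to carry weight, and over all pairs of a layout Spearman's rho between overlap length and r was only 0.10 for the 362 tail-to-tail and 0.17 for the 252 head-to-head pairs. Overlaps under 10 bp did not lie between the longer overlaps and the pairs with a gap: the median r was -0.26 in 37 tail-to-tail and 0.54 in 21 head-to-head pairs. In the 26 tested pairs whose coding sequences coincide the median was 0.48, against 0.15 in the other 590. Layout differed too: of all 29 such pairs, 18 are head-to-head and 11 tail-to-tail, beside 262 and 379 of all 643. The part of layout in this difference was not tested.

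The same bins differed in how far apart the partners' levels lay. The median absolute difference of levels per kilobase between tail-to-tail partners was 1.71 log2 units under 100 bp, 2.34 from 100 to under 500 bp and 7.10 from 500 bp. For head-to-head partners it was 1.50, 1.95 and 3.66. The pairs with the longest overlaps were therefore also those with a strong and a weak partner, and the part of shared reads in their agreement was not tested. Where coding sequences coincide, the median difference was 3.93 log2 units, against 1.74 in the other pairs.

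**Figure D2:**
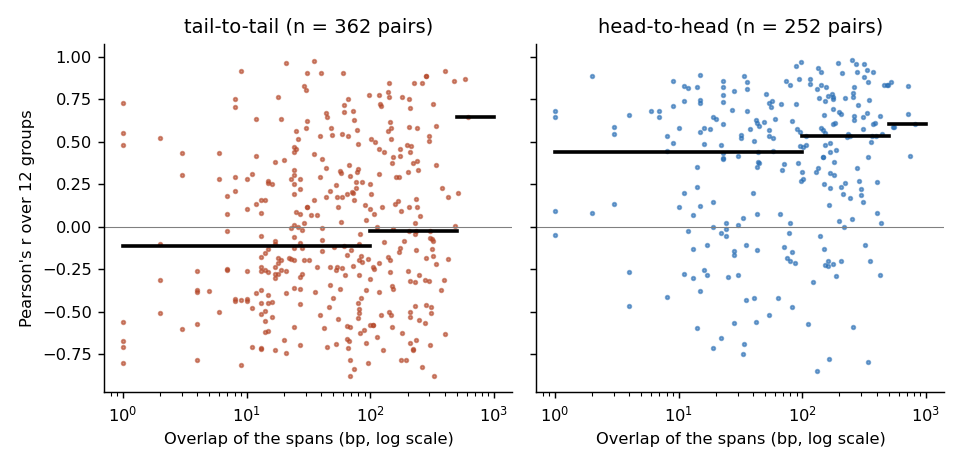
Partner correlation against overlap length. The x axis is the shared length in bp on a log scale, the y axis is Pearson's r over the 12 group means, each point is a tested overlapping pair, and black bars mark the median of each length bin. Points of both layouts fill most of the range below 500 bp, and the few longer overlaps all have r above 0.

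The question of which partners changed together was then put to each of 16 comparisons: low against high nitrogen and acetate against none at every time, and 88 against 48 h in each medium. A gene was called changed at a Benjamini-Hochberg adjusted p below 0.05 in edgeR's quasi-likelihood test, adjusted over all 8314 genes. A pair was counted as together when both partners were called with the same sign and as opposed when both were called with opposite signs. Several comparisons share libraries, so they do not repeat one another independently. The background for each count is the same share among all 8149 tested neighbouring pairs.

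Between low and high nitrogen, 22.4% to 35.2% of the 616 pairs changed together and 13.0% to 26.1% were opposed, close to the background throughout. Without acetate at 48 h, 138 pairs were together (background 21.7%) and 80 opposed (background 14.5%). At 64 h these were 202 (background 33.1%) and 147 (background 22.3%). At 88 h they were 217 (background 36.7%) and 152 (background 23.6%). Both partners were thus called in most pairs at 64 and 88 h, as they were in most neighbouring pairs. With acetate at 48 h, 182 pairs were together (background 29.5%) and 119 opposed (background 20.6%). At 64 h with acetate the counts were 191 (background 35.1%) and 161 (background 23.6%), and at 88 h they were 211 (background 36.1%) and 154 (background 23.9%). The layouts separated in all 6 comparisons: of the pairs with both partners called, 43.3% to 56.8% of tail-to-tail and 23.3% to 29.1% of head-to-head pairs were opposed. Neighbours with a gap of at most 1000 bp separated too, with 46.2% to 49.5% and 30.0% to 33.2%. At 64 h with acetate, 121 overlapping tail-to-tail pairs were opposed and 92 together, while 40 overlapping head-to-head pairs were opposed and 98 together. The count at 88 h without acetate depended on the scaling: by library totals alone 91 pairs were opposed there (14.8%), with 30.8% of tail-to-tail and 13.8% of head-to-head pairs opposed.

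Acetate moved fewer pairs in low than in high nitrogen. In low nitrogen at 48 h, 96 pairs were together (15.6%, background 17.6%) and 55 opposed (8.93%, background 9.88%). At 64 h there were 59 together (9.58%, background 11.6%) and 42 opposed (6.82%, background 7.33%), and at 88 h there were 106 (17.2%, background 16.2%) and 52 (8.44%, background 7.88%). In high nitrogen at 48 h, 180 pairs were together (29.2%, background 27.9%) and 118 opposed (19.2%, background 20%). At 64 h these were 150 (24.4%, background 26.4%) and 127 (20.6%, background 19%), and at 88 h 167 (27.1%, background 32.4%) and 161 (26.1%, background 25.2%). Leaving out any 1 of the libraries compared lowered the low-nitrogen counts at 48 and 88 h. The share together was then 11.0% to 12.5% at 48 h and 12.3% to 15.4% at 88 h. The opposed share was 5.36% to 7.63% and 5.52% to 7.95%. At 64 h the opposed share ran from 4.22% to 8.44%, on both sides of the 6.82% with all libraries. Whether particular libraries or the smaller groups lowered the counts was not tested. Without replicate 2 of the group without acetate, 5.36% of pairs were opposed at 48 h. At 64 h, 5.03% were together and 4.22% opposed without replicate 1 with acetate, 5.68% were together without replicate 3 of the group without acetate, and 37.0% of head-to-head pairs with both partners called were opposed without replicate 3 with acetate. At 88 h, 5.52% were opposed without replicate 2 with acetate. Fitting only the 2 groups compared gave 26.3% together and 17.7% opposed at 48 h, and scaling by library totals alone gave 17.5% together at 64 h. Opposed changes made up 41.6% to 55.1% of those with both partners called in tail-to-tail pairs and 20.9% to 45.5% in head-to-head pairs. In neighbours with a gap of at most 1000 bp they made up 46.1% to 54.8% and 22.3% to 40.7%. The highest head-to-head value of overlapping pairs came from high nitrogen at 88 h, where 56 such pairs were opposed and 67 together. Under scaling by library totals alone that value was 21.0%, with 43.7% of all pairs together.

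The time of culture gave the same division. From 48 to 88 h in low nitrogen without acetate, 196 pairs changed together (31.8%, background 33.3%) and 137 were opposed (22.2%, background 21.7%). With acetate there were 181 together (29.4%, background 33.6%) and 143 opposed (23.2%, background 22.5%). In high nitrogen without acetate 159 pairs were together (25.8%, background 24.8%) and 109 opposed (17.7%, background 18.7%), and with acetate 160 (26.0%, background 27.8%) and 109 (17.7%, background 18.5%). Of the changes with both partners called, 47.9% to 55.4% were opposed in tail-to-tail and 24.0% to 28.0% in head-to-head pairs. In neighbours with a gap of at most 1000 bp these shares were 46.8% to 50.3% and 29.8% to 35.6%. Fitting only the 2 groups compared lowered the counts for high nitrogen without acetate, to 15.7% together and 9.90% opposed.

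**Figure D3:**
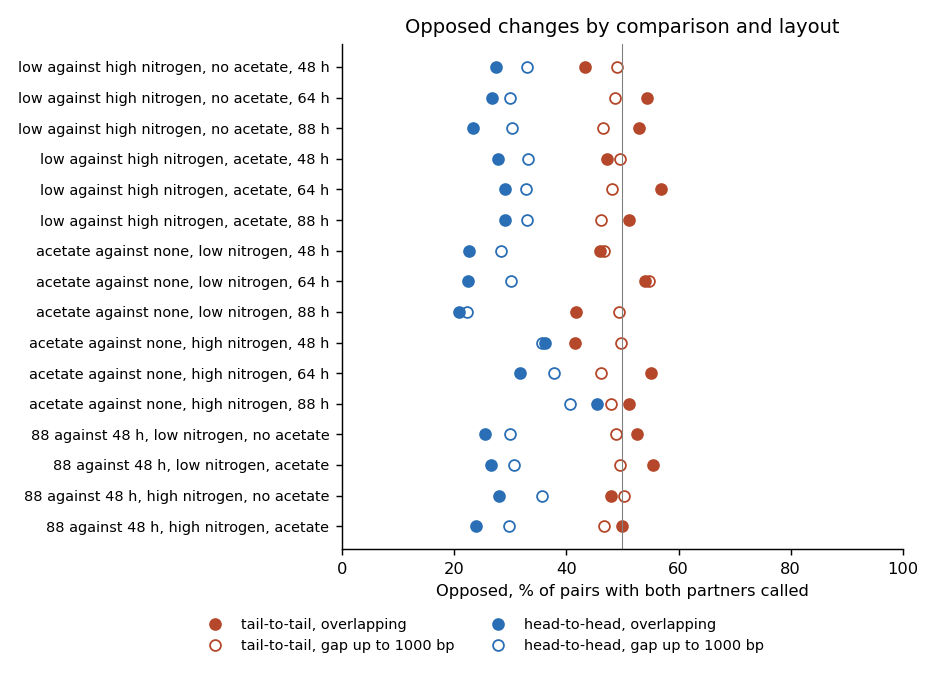
Share of opposed changes by comparison and layout. The x axis is the percentage of pairs with both partners called whose changes had opposite signs, the y axis lists the 16 comparisons, filled dots are overlapping pairs, open dots are pairs with a gap of at most 1000 bp, and the grey line marks 50%. The tail-to-tail dots lie to the right of the head-to-head dots in 16 of 16 comparisons.

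Over the 16 comparisons together, tail-to-tail partners were opposed about as often as not and head-to-head partners mostly moved together. Opposed changes numbered 1355 of 2674 in tail-to-tail pairs (50.7%) and 507 of 1778 in head-to-head pairs (28.5%). The share was higher in tail-to-tail than in head-to-head pairs in 16 of 16 comparisons, and more tail-to-tail pairs were opposed than together in 9 of 16, against 0 of 16 for head-to-head pairs. By library totals alone the opposed share was lower in level, at 30.8% to 50.7% in tail-to-tail and 13.8% to 31.5% in head-to-head pairs, and again higher in tail-to-tail pairs in 16 of 16 comparisons. Neighbours with a gap of at most 1000 bp gave 48.4% for tail-to-tail and 32.6% for head-to-head. Among them too, the tail-to-tail share (46.1% to 54.8%) was above the head-to-head share (22.3% to 40.7%) in every comparison. Head-to-head pairs that overlap were below those with a gap in 14 of 16 comparisons, whereas overlapping tail-to-tail pairs were above those with a gap in 9. By overlap length the opposed share was 52.9%, 47.2% and 12.5% in tail-to-tail and 33.1%, 23.3% and 5.71% in head-to-head pairs in the same 3 bins.

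Most pairs showed both patterns, as neighbours in general did. In 482 of the 616 tested pairs (78.2%) the partners were together in some comparisons and opposed in others, against 79.4% of all neighbouring pairs. In 98 (15.9%) they were only ever together, against 15.1%, in 30 (4.87%) only ever opposed, against 5.10%, and in 6 never both called. By layout, 27.0% of head-to-head pairs were only ever together, against 19.5% with a gap of at most 1000 bp, and 8.01% of tail-to-tail pairs, against 8.35%. A median head-to-head pair was together in 5 comparisons and opposed in 1, and a median tail-to-tail pair was together in 3 and opposed in 4. With a gap of at most 1000 bp the medians were 5 and 2 for head-to-head and 4 and 3 for tail-to-tail pairs. Opposed in 8 or more comparisons were 32 pairs, of which 26 were tail-to-tail and 6 head-to-head, and together in 8 or more were 83 pairs, of which 48 were head-to-head and 35 tail-to-tail. These were 5.19% and 13.5% of the tested pairs, beside 4.10% and 14.8% of all neighbouring pairs. Of tail-to-tail pairs, 7.18% were opposed and 9.67% together that often, against 5.96% and 7.91% with a gap of at most 1000 bp. Of head-to-head pairs, 2.38% were opposed and 19.0% together that often, against 1.70% and 19.7%. The highest counts of opposed changes, 11 of 16 each, fell on 3 tail-to-tail pairs, mRNA_471/mRNA_472 (96 bp shared), mRNA_5830/mRNA_5831 (21 bp) and mRNA_2117/mRNA_2118 (127 bp). The highest count of changes together was 14 of 16, in the head-to-head pair mRNA_6097/mRNA_6098 (252 bp), whose r of 0.98 was the highest of all overlapping pairs. These 4 pairs were singled out after their counts were seen.

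Whether 2 partners changed by unequal amounts was tested directly on the log2 ratio of their CPM across the libraries, with limma and Benjamini-Hochberg adjustment over 8150 pairs. Overlapping pairs were unequal as often as neighbours in general. For nitrogen without acetate at 48, 64 and 88 h, 339, 433 and 456 pairs were unequal (55.0%, 70.3% and 74.0%; backgrounds 55.5%, 69.6% and 73.9%). With acetate there were 414, 452 and 472 (67.2%, 73.4% and 76.6%; backgrounds 68%, 73.2% and 76%). For acetate in low nitrogen the counts were 286, 270 and 257 (46.4%, 43.8% and 41.7%; backgrounds 49.8%, 42% and 43.1%). In high nitrogen they were 419, 398 and 436 (68.0%, 64.6% and 70.8%; backgrounds 67.6%, 63.8% and 73.5%). From 48 to 88 h, 429 and 431 pairs were unequal in low nitrogen without and with acetate (69.6% and 70.0%; backgrounds 69.7% and 71%), and 391 and 390 in high nitrogen (63.5% and 63.3%; backgrounds 65.5% and 64.7%).

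Large changes of both partners were rare. With each partner changed at least 2-fold, between 17 and 64 pairs were together and between 4 and 23 opposed in the nitrogen comparisons. Acetate left 1 to 31 together and 1 to 17 opposed, and time 19 to 40 and 7 to 21. The pairs together at that size were 2.76% to 10.4% of all tested pairs for nitrogen, 0.162% to 5.03% for acetate and 3.08% to 6.49% for time, beside backgrounds of 2.64% to 9.52%, 0.589% to 5.37% and 2.87% to 7.57%. The opposed pairs of that size were 0.649% to 3.73% of all pairs for nitrogen, 0.162% to 2.76% for acetate and 1.14% to 3.41% for time, beside backgrounds of 0.724% to 3.67%, 0.123% to 2.79% and 1.29% to 3.17%.

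Acetate acted differently at the 2 nitrogen levels on many of these genes. The interaction was called in 695 of 1188 tested member genes at 48 h (58.5%, background 56.8% of all genes), 664 at 64 h (55.9%, background 56%) and 761 at 88 h (64.1%, background 63%). Where the interaction was called in both partners, its sign was opposite in 41.4%, 50.4% and 42.5% of tail-to-tail pairs at the 3 times and in 34.6%, 39.7% and 30.9% of head-to-head pairs. With a gap of at most 1000 bp these shares were 50.2%, 44.1% and 47.8% in tail-to-tail and 31.0%, 36.6% and 34.8% in head-to-head pairs, and over all neighbouring pairs they were 41.4%, 41.4% and 41.3%.

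Which partner was the more abundant changed across groups in a minority of pairs. A partner was taken to lead in a group when its 3 libraries, per kilobase of exon, all lay above those of the other. The same partner led in every group in 356 of 616 pairs (57.8%), and each partner led in at least 1 group in 174 (28.2%). Such exchanges were found in 31.8% of tail-to-tail and 23.0% of head-to-head pairs, below the 35.1% and 28.9% of pairs with a gap of at most 1000 bp. An exchange with a lead of at least 2-fold each way was found in 43 pairs, 36 of them tail-to-tail (9.94%), 6 head-to-head (2.38%) and 1 nested. With a gap of at most 1000 bp, 11.4% of tail-to-tail, 4.66% of head-to-head and 8.74% of same-strand pairs made such an exchange. The same partner led throughout in 55.2% of overlapping tail-to-tail and 61.5% of overlapping head-to-head pairs, and with a gap in 50.9%, 53.6% and 52.9% of tail-to-tail, head-to-head and same-strand pairs.

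The clearest opposed change was that of mRNA_4369 and mRNA_4370, which end in each other on scaffold 3. mRNA_4369 occupies 28766 to 30040 on the plus strand and mRNA_4370 occupies 29967 to 32389 on the minus strand. The 74 bp they share hold coding sequence of neither gene. Without acetate at 88 h, mRNA_4369 stood at 6.00, 8.87 and 7.85 CPM in low nitrogen and at 41.8, 49.0 and 46.2 CPM in high nitrogen. Its partner mRNA_4370 stood at 790, 1000 and 780 CPM in low and at 65.4, 46.2 and 70.2 CPM in high nitrogen. The groups did not overlap for either gene, and the gene that was low in one medium had the high partner. The log2 fold change of low against high nitrogen was -2.56 ± 0.19 (SE, edgeR adjusted p = 4.85e-13) for mRNA_4369 and 3.82 ± 0.17 (adjusted p = 3.75e-18) for mRNA_4370. The log2 ratio of the partners changed by -6.43 ± 0.26 (limma, adjusted p = 4.8e-18).

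Acetate turned the same pair in low nitrogen at 48 h. There mRNA_4369 went from 15.7, 14.5 and 16.7 CPM without acetate to 56.7, 58.4 and 57.9 CPM with it, a log2 change of 1.88 (edgeR adjusted p = 9.1e-10). mRNA_4370 went from 824, 877 and 822 CPM to 314, 269 and 264 CPM, a log2 change of -1.57 (edgeR adjusted p = 9.97e-10). Over all 12 groups the group means of mRNA_4369 ran from 7.57 to 99.7 CPM and those of mRNA_4370 from 9.97 to 857 CPM, with r at -0.84. The pair was opposed in 9 comparisons and together in 1.

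A second pair of this kind is mRNA_6783 and mRNA_6784, tail-to-tail on scaffold 7 at 121140 to 122085 and 121937 to 123164, with 149 bp shared. Without acetate at 88 h, mRNA_6783 measured 116, 123 and 118 CPM in low nitrogen and 29.5, 35.3 and 31.2 CPM in high nitrogen. mRNA_6784 measured 5.70, 6.63 and 6.60 CPM in low and 70.4, 45.7 and 61.4 CPM in high nitrogen. By CPM, the first gene was the high one in all 3 libraries in low nitrogen, and the second was in high nitrogen. Per kilobase of exon (664 and 1149 bp), the high-nitrogen library at 35.3 and 45.7 CPM had the other order. The log2 fold changes were 1.9 ± 0.14 for mRNA_6783 (edgeR adjusted p = 2.13e-13) and -3.21 ± 0.13 for mRNA_6784 (adjusted p = 1.09e-18). In other comparisons the same partners moved the same way, so that the pair counted 6 opposed and 5 together and had r at -0.59.

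The lead passed from one partner to the other with time in mRNA_471 and mRNA_472, tail-to-tail on scaffold 1 at 1096183 to 1097842 and 1097747 to 1099461, with 96 bp shared. In high nitrogen without acetate, mRNA_471 rose from 7.84, 8.60 and 9.48 CPM at 48 h to 46.3, 37.5 and 36.6 CPM at 88 h. mRNA_472 fell from 49.5, 42.1 and 51.4 CPM to 10.9, 13.2 and 11.5 CPM. The 3 libraries of each gene changed places with no overlap: log2 2.22 ± 0.12 (edgeR adjusted p = 2.77e-15) and -2.0 ± 0.17 (adjusted p = 3.57e-11). In low nitrogen without acetate the changes were 1.84 ± 0.11 for mRNA_471 (edgeR adjusted p = 1.49e-14) and -2.36 ± 0.19 for mRNA_472 (adjusted p = 5.1e-12). This pair was opposed in 11 comparisons and together in 0, with r at -0.80.

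The pair mRNA_2501 and mRNA_2502 lies on scaffold 14 at 301720 to 303363 and 303296 to 306758, tail-to-tail with 68 bp shared. At 64 h with acetate, mRNA_2501 stood at 4.51, 6.18 and 6.89 CPM in low and at 34.2, 32.8 and 33.9 CPM in high nitrogen. mRNA_2502 stood at 623, 677 and 620 CPM in low and at 111, 131 and 124 CPM in high nitrogen. Here one partner was the more abundant in every library, and the distance between them, not the order, changed. The log2 fold changes were -2.48 ± 0.15 for mRNA_2501 (edgeR adjusted p = 5.61e-15) and 2.39 ± 0.18 for mRNA_2502 (adjusted p = 7.83e-13), with r at -0.88 over the 12 groups.

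Acetate in high nitrogen set 3 further tail-to-tail pairs against each other. mRNA_5774 and mRNA_5775, on scaffold 5 at 917914 to 918748 and 918726 to 919986, share 23 bp. At 64 h mRNA_5774 rose from 53.6, 47.3 and 56.0 CPM without acetate to 202, 198 and 176 CPM with it (log2 1.88 ± 0.12, edgeR adjusted p = 7.94e-14). mRNA_5775 fell from 57.7, 22.0 and 63.1 CPM to 4.68, 6.52 and 6.91 CPM (log2 -3.01 ± 0.29, adjusted p = 6.36e-10). The value of 22.0 CPM belongs to a library that stood apart, without which the log2 change of mRNA_5775 was -3.35. In low nitrogen with acetate at 64 h both were high, with 575 ± 110 CPM for mRNA_5774 and 286 ± 55.9 CPM for mRNA_5775 (SD, n = 3), and over the 12 groups r was -0.01. The opposition of these partners was therefore a matter of one medium and not of the whole series.

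mRNA_572 and mRNA_573, on scaffold 1 at 1367655 to 1369957 and 1369955 to 1372100, share only 3 bp. At 64 h in high nitrogen, acetate took mRNA_572 from 2.89, 3.51 and 4.42 CPM to 20.8, 15.4 and 13.9 CPM (log2 2.21, edgeR adjusted p = 2.14e-07). mRNA_573 went from 25.5, 31.9 and 26.6 CPM to 10.7, 11.1 and 12.0 CPM (log2 -1.32, adjusted p = 9.41e-09). In that comparison the groups of neither gene overlapped and the partners were opposed. Over the 16 comparisons the pair was opposed in 4 and together in 4, with r at 0.30.

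mRNA_7315 and mRNA_7316, on scaffold 7 at 1379904 to 1380743 and 1380416 to 1382253, share 328 bp and had the lowest r of all overlapping pairs, -0.88. At 48 h in high nitrogen, mRNA_7316 rose from 15.8, 16.8 and 13.2 CPM without acetate to 101, 87.5 and 51.6 CPM with it (log2 2.39 ± 0.23, edgeR adjusted p = 2.2e-10). mRNA_7315 moved less, from 38.4, 43.3 and 47.9 CPM to 29.8, 35.3 and 27.6 CPM (log2 -0.48 ± 0.09, adjusted p = 1.26e-05). The value of 51.6 CPM belongs to a library that stood apart, without which the log2 change of mRNA_7316 was 2.62. In all 6 low-nitrogen groups mRNA_7316 stayed between 9.35 and 13.9 CPM on average, and in high nitrogen with acetate between 75.9 and 89.6 CPM.

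**Figure D4:**
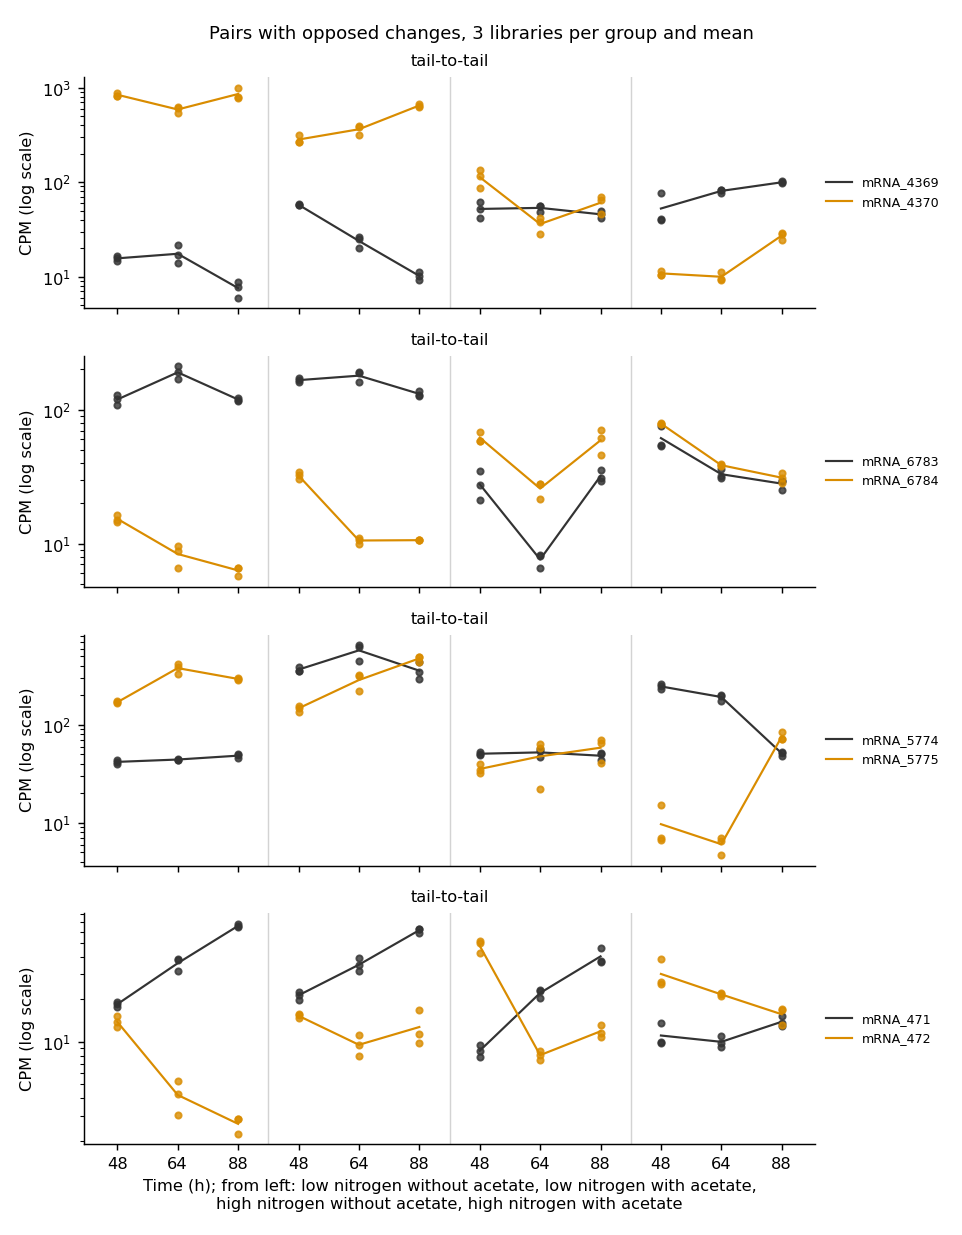
CPM of 4 tail-to-tail pairs in all libraries. The y axes are CPM on a log scale, the x axes run over 48, 64 and 88 h in each of the 4 media, points are the 3 libraries of a group and lines join group means. mRNA_4369 and mRNA_4370 are farthest apart in low nitrogen. Without acetate at 88 h, mRNA_6783 and mRNA_6784 exchange their order in CPM between nitrogen levels. mRNA_5774 and mRNA_5775 part with acetate in high nitrogen up to 64 h, and mRNA_471 and mRNA_472 cross with time.

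The pairs that moved most closely together included both layouts. mRNA_8153 and mRNA_8154 are head-to-head on scaffold 9 at 537563 to 539222 and 539125 to 541090, with 98 bp shared and r at 0.97. At 88 h with acetate, mRNA_8153 stood at 9.13, 9.25 and 10.8 CPM in low and at 39.4, 40.4 and 39.9 CPM in high nitrogen (log2 -2.04 ± 0.10, edgeR adjusted p = 2.28e-17). mRNA_8154 stood at 29.7, 36.5 and 29.9 CPM in low and at 140, 144 and 142 CPM in high nitrogen (log2 -2.15 ± 0.10, adjusted p = 1.83e-17). The groups did not overlap for either gene, and the 2 log2 changes differed by about their SE.

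mRNA_4572 and mRNA_4573 are head-to-head on scaffold 3 at 495766 to 497109 and 496914 to 499103, with 196 bp shared and r at 0.96. From 48 to 88 h in low nitrogen with acetate, mRNA_4572 fell from 29.2, 33.0 and 30.5 CPM to 9.45, 9.01 and 8.22 CPM (log2 -1.79 ± 0.12, edgeR adjusted p = 5.29e-14). mRNA_4573 fell from 20.8, 21.7 and 23.1 CPM to 4.77, 4.33 and 5.5 CPM (log2 -2.17 ± 0.13, adjusted p = 9.77e-15). The pair was together in 11 comparisons.

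A tail-to-tail pair with the same behaviour is mRNA_5406 and mRNA_5407, on scaffold 5 at 26855 to 28416 and 28396 to 30233, which share 21 bp and had r at 0.96. Without acetate at 64 h, mRNA_5406 stood at 13.2, 10.5 and 10.5 CPM in low and at 25.4, 24.3 and 26.5 CPM in high nitrogen (log2 -1.16 ± 0.11, edgeR adjusted p = 1.75e-10). mRNA_5407 stood at 11.7, 9.68 and 9.99 CPM in low and at 24.6, 21.5 and 25.7 CPM in high nitrogen (log2 -1.20 ± 0.11, adjusted p = 1.08e-10). Both partners were lower in low nitrogen in all 3 libraries, by nearly equal amounts, and the pair was together in 10 comparisons.

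**Figure D5:**
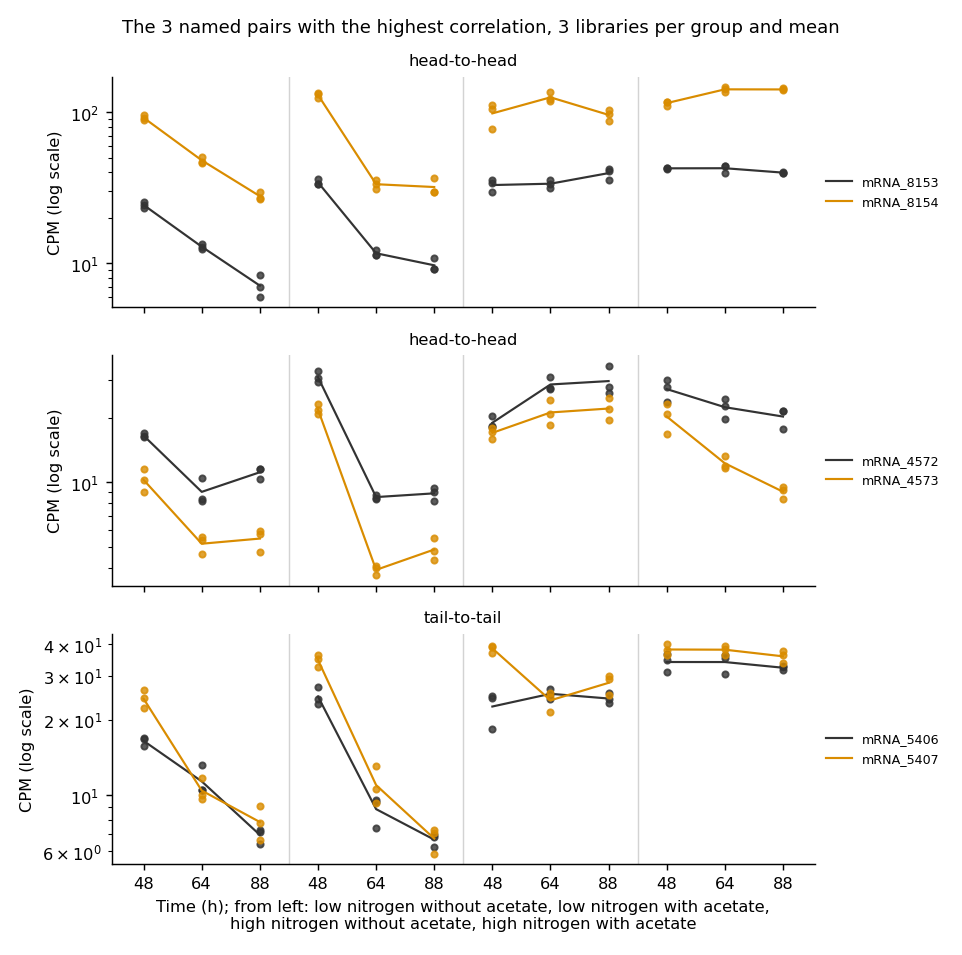
CPM of 3 pairs with r of 0.96 or more in all libraries. The y axes are CPM on a log scale, the x axes run over 48, 64 and 88 h in each of the 4 media, points are the 3 libraries of a group and lines join group means. In each pair the 2 lines run nearly parallel, with mRNA_8153 below mRNA_8154, mRNA_4573 below mRNA_4572, and mRNA_5406 close to mRNA_5407.

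The pairs with the longest overlaps did not oppose each other in most comparisons, and their partners often differed widely in level. The longest head-to-head overlap, 813 bp, joins mRNA_6681 (scaffold 6, 1431812 to 1432661) and mRNA_6682 (1431849 to 1434579). From 48 to 88 h in low nitrogen with acetate, mRNA_6681 rose from 72.9, 61.2 and 52.9 CPM to 249, 255 and 230 CPM (log2 1.97, edgeR adjusted p = 3.66e-10). mRNA_6682 rose from 32.0, 29.8 and 29.9 CPM to 60.5, 58.5 and 67.2 CPM (log2 1.02, adjusted p = 5.5e-08). The pair was together in 4 comparisons and opposed in 0.

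The next head-to-head overlap, 747 bp, joins mRNA_5385 (scaffold 4, 619220 to 620866) and mRNA_5386 (620120 to 622162). In low nitrogen at 88 h, acetate took mRNA_5385 from 38.9, 41.6 and 38.6 CPM to 151, 151 and 164 CPM (log2 1.97, edgeR adjusted p = 6.48e-10). mRNA_5386 went from 189, 182 and 180 CPM to 293, 286 and 290 CPM (log2 0.66, adjusted p = 9.44e-06). Both rose, the first by far more than the second, and the pair was together in 6 comparisons and opposed in 2.

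Among tail-to-tail pairs the longest overlaps were 611 bp, between mRNA_2103 (scaffold 13, 80480 to 81772) and mRNA_2104 (81162 to 84550), and 586 bp, between mRNA_2603 (scaffold 14, 573205 to 575522) and mRNA_2604 (574937 to 577017). In high nitrogen at 88 h, acetate lowered mRNA_2103 from 4.00, 5.49 and 3.42 CPM to 1.48, 1.04 and 1.24 CPM (log2 -1.82, edgeR adjusted p = 5e-09) and mRNA_2104 from 46.5, 57.6 and 44.4 CPM to 26.8, 28.7 and 26.7 CPM (log2 -0.85, adjusted p = 6.64e-07). In the second pair mRNA_2603 never exceeded a group mean of 1.74 CPM beside 69.4 to 151 CPM for mRNA_2604, and at 48 h with acetate both were higher in low nitrogen, by log2 0.99 (edgeR adjusted p = 0.00155) and 0.53 (adjusted p = 1.68e-06). The first pair was together in 5 comparisons and opposed in 0, the second together in 6 and opposed in 2.

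The 2 nested pairs differed from each other. mRNA_5217 (scaffold 4, 167751 to 168514, minus strand) lies within mRNA_5216 (167613 to 174495, plus strand). At 48 h in high nitrogen, acetate took mRNA_5217 from 2.73, 3.37 and 4.68 CPM to 176, 152 and 216 CPM (log2 5.67 ± 0.26, edgeR adjusted p = 1.81e-17). The outer gene mRNA_5216 went from 299, 288 and 284 CPM to 190, 208 and 248 CPM (log2 -0.43 ± 0.10, edgeR adjusted p = 0.000217). The inner gene rose to the level of the outer one in that group, was at 54.1, 30.3 and 44.9 CPM with acetate at 64 h in high nitrogen, and lay between 1.27 and 14.7 CPM in all other libraries. Its acetate effect differed between nitrogen levels at 48 h by -6.31 ± 0.40 on the log2 scale (low minus high, edgeR adjusted p = 1.5e-13). Over the 12 groups r was 0.07.

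The other nested gene, mRNA_6161 (scaffold 6, 145131 to 145498), lies within mRNA_6160 (144470 to 145498). It averaged 0.193 CPM over the 36 libraries, with 6 to 34 counts in all for the 3 libraries of a group, while group means of mRNA_6160 lay between 30.8 and 41.4 CPM. mRNA_6161 was nevertheless called in 3 comparisons. From 48 to 88 h in low nitrogen without acetate it went from 0.257, 0.330 and 0.280 CPM to 0, 0.0889 and 0.151 CPM, or from 27 to 9 counts per group (log2 -1.64 ± 0.60, edgeR adjusted p = 0.0161). Low against high nitrogen without acetate at 64 h gave log2 1.62 (edgeR adjusted p = 0.0470), on 15 and 6 counts, and acetate in high nitrogen at 48 h gave log2 1.2 (edgeR adjusted p = 0.0410), on 34 and 15 counts. The libraries of the groups overlapped in both of these. The pair was counted as together in 2 comparisons, which rest on these few counts.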

How the data were processed

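The deposited values are whole-number counts per mRNA for each of 36 libraries, made by the authors from stranded libraries per the labels' protocols. A label calls them counts scaled to library size, but they are whole and their totals differ, so they were used as raw counts. Named in the submitters' processing notes are STAR 2.7.10a, Subread 2.0.4, featureCounts, Trimmomatic 0.39, MultiQC 1.9 and FastQC 0.11.9, and their settings are not given in the sources used here.

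Pairs were taken from the mRNA spans and strands of the deposited catalogue, and their calling was tested on made-up spans. In R 4.3.3, all 36 libraries entered a single edgeR 4.0.16 fit with a mean for each group (filterByExpr, TMM scaling, quasi-likelihood test), with Benjamini-Hochberg adjustment in each comparison. An SE is the absolute log2 fold change divided by the square root of F. Log2 CPM used a prior count of 2. Partner ratios were tested with limma 3.58.1. Both tests were tried on simulated counts.

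Named pairs are, in each comparison, the 2 opposed pairs with the largest smaller fold change and a mean of at least 10 CPM in each partner's higher group, the 3 pairs of highest r and the 3 of lowest r among those that reach 10 CPM and range over 1 log2 unit, and the 2 longest overlaps of each layout. Those given in full come up most often or show a medium of their own, and at most 2 risen and 2 fallen genes are described for a comparison. The pairs, lists and named genes were chosen with earlier results of these data known. Other settings were library totals alone, RLE size factors, DESeq2 1.42.0, a filter of at least 10 CPM in 3 libraries, no filter, a block for replicate number, only the 2 groups compared, overlaps of at least 100 bp, and each library left out; leaving out the libraries that stood apart was added after seeing the data. No genome of the files' build was used here, so no sequence is shown.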

Additional observations from a re-analysis of the deposited data

Results flagged for a closer look

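Among the genes of the named pairs, 13 acetate effects were called with opposite signs in low and in high nitrogen, and the difference itself was called (edgeR interaction, adjusted over all genes). These are 13 of 192 combinations of 64 genes and 3 times (6.77%), beside 10.1% of the 24942 combinations over all 8314 genes tested. Many of the named pairs were chosen for opposed changes, so nothing is read from the count. Differences are given as the effect in low minus that in high nitrogen, on the log2 scale, with the SE.

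At 48 h, the difference was -4.70 ± 0.56 for mRNA_572 (-1.28 in low and 3.42 in high nitrogen, edgeR adjusted p = 4.84e-08). mRNA_545 differed by -1.2 ± 0.12 (-0.98 and 0.22, edgeR adjusted p = 2.48e-09). For mRNA_2502 the difference was 2.21 ± 0.24 (0.55 and -1.67, edgeR adjusted p = 1.2e-08), for mRNA_6221 1.44 ± 0.16 (0.95 and -0.49, edgeR adjusted p = 1.48e-08), and for mRNA_1522 0.70 ± 0.16 (0.35 and -0.35, edgeR adjusted p = 0.000561).

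At 64 h, mRNA_573, the partner of mRNA_572, differed by 1.83 ± 0.22 (0.52 and -1.31, edgeR adjusted p = 1.3e-07). For mRNA_2501, the partner of mRNA_2502, the difference was -0.76 ± 0.20 (-0.39 and 0.38, edgeR adjusted p = 0.00215). mRNA_2339 differed by 1.16 ± 0.18 (0.34 and -0.82, edgeR adjusted p = 6.93e-06), and mRNA_5406 by -0.80 ± 0.16 (-0.38 and 0.42, edgeR adjusted p = 0.000141).

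At 88 h, mRNA_6784 differed by 1.66 ± 0.18 (0.74 and -0.92, edgeR adjusted p = 7.96e-09) and mRNA_2338, the partner of mRNA_2339, by 1.41 ± 0.19 (0.37 and -1.04, edgeR adjusted p = 2.25e-07). For mRNA_2193 the difference was -1.33 ± 0.21 (-0.90 and 0.43, edgeR adjusted p = 4.1e-06), and for mRNA_5386 1.05 ± 0.15 (0.66 and -0.39, edgeR adjusted p = 9.24e-07).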

How the results depend on the processing

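The higher opposed share of tail-to-tail than of head-to-head pairs was found in 16 of 16 comparisons under each of the settings run on all 16. Scaling by library totals alone gave median r of 0.361 over all pairs, 0.139 for tail-to-tail (reversed) and 0.589 for head-to-head, against 0.135 over all gene pairs. It gave 14.8% opposed pairs for low against high nitrogen without acetate at 88 h (30.8% of tail-to-tail and 13.8% of head-to-head pairs with both called), and 293 pairs together there, 18 higher and 275 lower, in place of 217, 87 higher and 130 lower, with the median of all genes shifted by -0.54. It also gave 17.5% together for acetate in low nitrogen at 64 h, and 43.7% together with 21.0% of head-to-head pairs opposed for acetate in high nitrogen at 88 h. The filter of at least 10 CPM gave r of 0.115, -0.0994 and 0.454, overlaps of at least 100 bp 0.320, -0.0107 and 0.536, deviations within groups 0.107, 0.0424 (reversed) and 0.210, and Spearman's rho -0.0524 (tail-to-tail) and 0.451 (head-to-head). Without the libraries that stood apart the tail-to-tail median was -0.0494. Fitting only the 2 groups gave 26.3% together and 17.7% opposed for acetate in low nitrogen at 48 h, and 15.7%, 9.90% and 15.8% of head-to-head pairs opposed for time in high nitrogen without acetate. Overlaps of at least 100 bp gave opposed head-to-head shares of 13.1% (nitrogen without acetate, 88 h), 13.0%, 11.8% and 13.3% (acetate in low nitrogen, 48, 64 and 88 h), 17.3% (time in low nitrogen with acetate) and 9.80% (time in high nitrogen without acetate). They also gave 3.69% opposed pairs and 35.0% of tail-to-tail pairs for acetate in low nitrogen at 64 h, and 14.8% opposed pairs for time in low nitrogen without acetate.

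Leaving out 1 library gave opposed shares of 5.36% to 7.63% for acetate in low nitrogen at 48 h (lowest without low nitrogen, no acetate, replicate 2) and 5.52% to 7.95% at 88 h (lowest without the acetate library of replicate 2). At 64 h it gave 4.22% to 8.44% opposed, 5.03% to 9.58% together and 23.1% to 37.0% of head-to-head pairs opposed; both lowest counts came without replicate 1 with acetate, and the highest head-to-head share without replicate 3 with acetate. Leaving out a replicate number gave median r of 0.143 to 0.179 over all pairs and 0.457 to 0.491 for head-to-head pairs.

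Of 100 log2 fold changes of named genes, 99 kept direction and call under library totals alone, where that of mRNA_7315 for nitrogen without acetate at 88 h turned from 0.36 to -0.18. With 1 library left out, none of the 100 lost its call, the largest adjusted p being 0.0112 (edgeR). Replicate numbers paired no samples: in 0 of 16 comparisons did all 3 same-numbered pairs of libraries correlate over 0.1. The replicate block moved no count by over 1.5 times. The cause of these changes was not tested. Depth limits partners of few counts, such as mRNA_6161.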
